A study of Mus musculus with 12 samples.

Results

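Mice treated with a plant extract together with an antibody that blocks PD-1 were compared with vehicle-treated mice, gene by gene and tumor by tumor, in MC38 tumors collected on day 19. The comparison uses the 3 tumors labelled as combined treatment (Comb) and the 3 labelled as vehicle (Con), that is 6 of the 12 tumors sequenced, and the assignment rests on the sample labels alone. MC38 cells, an established line from a colon carcinoma of the mouse, had been injected subcutaneously into the right flank of wild-type (WT) female C57BL/6 mice aged 6 weeks, so the tumors grew outside the colon. Con mice received saline vehicle and an IgG2a control antibody. Comb mice received SFIH, the sesquiterpene lactone-rich hexane fraction of Inula helenium root, at 50 mg/kg into the peritoneum each day, and 200 μg of anti-PD-1 in each of 2 injections a week. The labels call the samples tumor cells, whereas the RNA was taken from whole tumor tissue, which also holds blood vessels, stroma and immune cells. In such bulk RNA, fewer cells of a type and less RNA per cell cannot be told apart.

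PD-1 is an inhibitory receptor of activated T cells, and its ligands are carried by tumor cells and myeloid cells. Antibodies that block it can restore the release of interferon gamma by T cells, which acts on neighbouring cells and raises chemokines such as CXCL9, guanylate-binding GTPases and the antigen-presenting MHC molecules. Flank tumors of mice are also rich in monocytes and macrophages, and poorly perfused tumors switch on genes of glycolysis and of the hypoxia-inducible factor HIF-1, which binds a short motif in the control regions of its targets.

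The Con tumors had between 9611832 and 10960304 counts on genes, and the Comb tumors had 10095648, 9841292 and 10981028. Comb replicate 3 stood apart from the other tumors. It had 1712 genes at least 1 log2 unit above the highest of the other 11 tumors (12.7% of the 13464 genes tested) and 1940 genes at least 1 below the lowest (14.4%), while no other tumor had more than 13 such genes above or 42 below. Its TMM scaling factor, which corrects for a changed make-up of the RNA, was 0.76 against 1.04 to 1.12 in Con, 1.02 in Comb replicate 1 and 0.884 in Comb replicate 2. It also had fewer genes with a count, 14503 against 15573 to 15909 in the other 5 tumors of the comparison. Ribosomal precursor RNA (Rn45s) took 6.84% to 10.3% of the counts in Con and 10.2%, 14.1% and 5.56% in the Comb tumors. Of the epithelial markers, Epcam had 0, 3 and 2 counts in Con and 7, 22 and 85 in Comb, while Cdh1, the adhesion molecule E-cadherin, had 41, 23 and 35 in Con and 31, 59 and 157 in Comb, and Vil1, the brush border protein villin, had 30, 20 and 20 in Con and 23, 24 and 0 in Comb. Of the 9 epithelial genes tested, 2 were higher in all 3 Comb tumors (11.7% of all genes), 1 was lower (13%) and 6 overlapped. Rhox5, a homeobox gene named after its values were seen and abundant in these tumors, had 14423, 14850 and 14275 counts in Con and 13764, 10613 and 329 in Comb, an overlap in scaled levels. Levels are therefore given for each tumor.

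With edgeR's quasi-likelihood test, 0 of the 13464 genes had an adjusted p under 0.05 between Con and Comb, with 2423 genes higher (18%) and 983 lower (7.3%) at an unadjusted p under 0.05. The other tools did make calls. DESeq2 called 1609 genes higher (12%) and 389 lower (2.9%), and limma with sample quality weights, which gave Comb replicate 3 a weight of 0.0596 and Comb replicate 1 a weight of 0.286, called 1627 higher (12.1%) and 1092 lower (8.11%). Without Comb replicate 3, edgeR called 5 genes (Chil3, Cryab, Ccr2 and C5ar1 higher, Bnip3 lower), and without Comb replicate 1 it called 3943. Because of this dependence on single tumors, genes were also sorted by whether the 3 Comb tumors lay on 1 side of the 3 Con tumors. A level here is log2(CPM + 1), CPM being the read count normalised to library size after TMM scaling, and 3 tumors against 3 cannot give an exact two-sided p under 0.1. In 1576 genes (11.7%) the lowest Comb tumor was above the highest Con tumor, and in 1751 genes (13%) the highest Comb tumor was below the lowest Con tumor. The closest tumors of the 2 groups were at least 1 log2 unit apart in 54 of the higher genes (0.401%) and 5 of the lower genes (0.0371%). With Comb replicates 1 and 2 alone, 2191 of 13621 genes were above all Con tumors (16.1%) and 2274 below (16.7%). Where a gene is given with its levels, the groups did not overlap unless it is said that they did. Scaling to library totals without TMM moved the median of all genes from −0.03 to −0.29 and the counts to 1025 higher and 2986 lower, so that 25.6% instead of 47.4% of the separated genes were higher.

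The 3 Comb tumors differed from vehicle to very different extents. Across all genes, the difference from the Con mean had an SD of 0.474 in Comb replicate 1, 0.821 in Comb replicate 2 and 1.77 in Comb replicate 3, against 0.354 to 0.407 for each Con tumor set against the other 2. In Comb replicate 1, 284 genes were at least 1 log2 unit above the Con mean and 179 at least 1 below. The corresponding numbers were 1500 and 629 in Comb replicate 2, and 3233 and 3626 in Comb replicate 3. A difference of at least 1 in the same direction was found in all 3 Comb tumors for 148 genes above (1.1%) and 34 genes below (0.253%) the Con mean. Taken singly, Comb replicates 1, 2 and 3 lay above all 3 Con tumors in 29.6%, 35.7% and 41.4% of all genes and below them in 28.5%, 37.9% and 47.9%, and the counts per tumor given for a list stand against these shares.

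**Figure D1:**
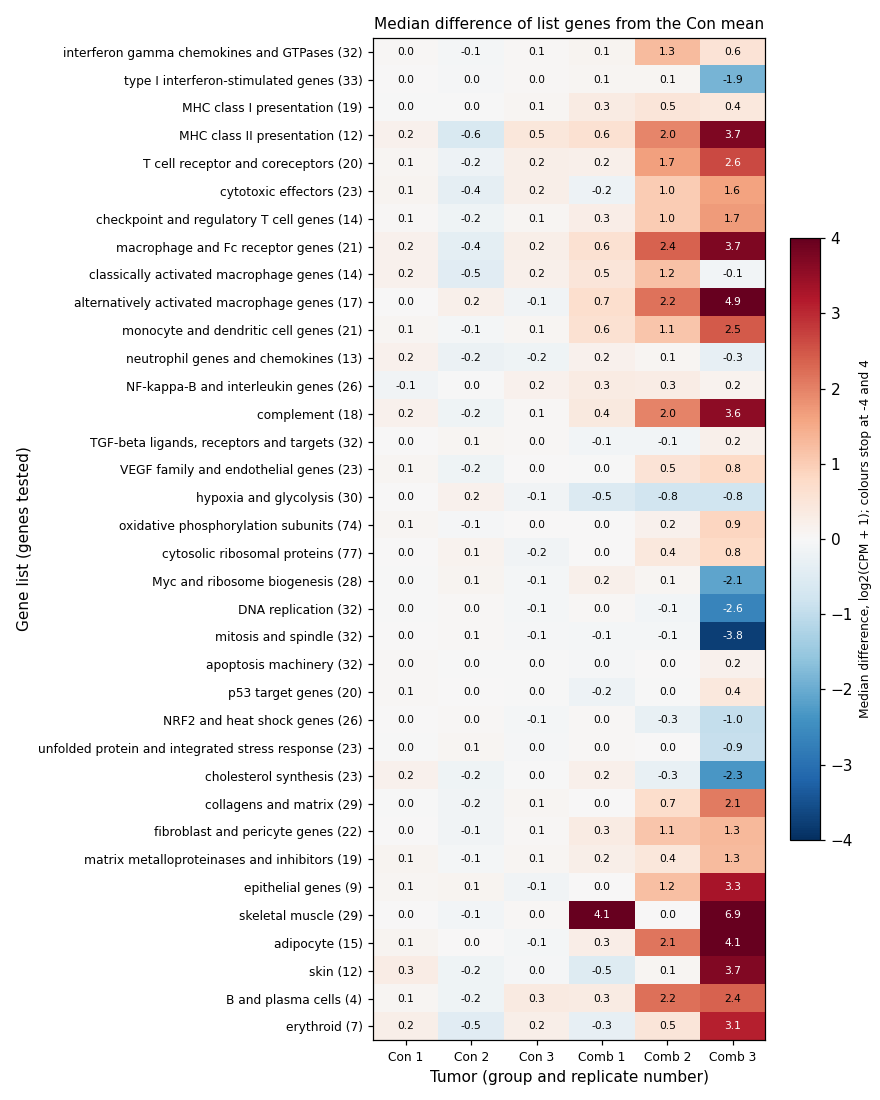
Median difference from the Con mean, in log2(CPM + 1) with TMM scaling, of the tested genes of 36 gene lists (rows, number of genes in parentheses) in each of the 3 Con and 3 Comb tumors (columns). Macrophage, MHC class II and complement genes were above Con in each Comb tumor and highest in Comb 3, hypoxia and glycolysis genes were below Con by 0.54 to 0.81 in the 3 Comb tumors, and replication, mitosis and type I interferon genes were far below Con in Comb 3 alone.

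The genes that separated most clearly upward were led by Cryab and included myeloid and muscle-associated genes. Cryab, which encodes the small heat shock protein alpha-B-crystallin, was at 1.42, 1.0 and 0.85 in Con and 3.84, 3.91 and 7.39 in Comb (log2 fold change 5.78, standard error 1.03, edgeR adjusted p = 0.0665). Chil3, which encodes a chitinase-like protein of monocytes and macrophages, was at 2.76, 1.81 and 2.43 in Con and 5.03, 6.2 and 7.96 in Comb (4.79, standard error 0.70, adjusted p = 0.0665). Both genes passed the test without Comb replicate 3, at 3.61 for Chil3 and 3.54 for Cryab (adjusted p = 0.0282 for each). Ccl11, the eosinophil attractant eotaxin, was at 1.1, 2.07 and 2.69 in Con and 4.33, 5.29 and 8.42 in Comb (5.34, standard error 1.12, or 3.13 without Comb replicate 3). Cma1, a mast cell chymase, was at 0.84, 0.77 and 1.57 in Con and 3.2, 5.12 and 7.76 in Comb, and its lowest Comb level lay 0.04 above the highest level of all 9 other tumors. Sfrp1, a secreted inhibitor of Wnt signaling, was at 1.9, 2.59 and 2.67 in Con and 4.44, 7.34 and 5.93 in Comb and was the exception in this group, with its highest level in Comb replicate 2. Bst1, an ectoenzyme of myeloid and stromal cells, was at 1.64, 1.27 and 1.33 in Con and 3.27, 3.56 and 5.62 in Comb. A further 3 genes with a large separation are genes of muscle and fat. Car3, the carbonic anhydrase of fat and slow muscle, was at 1.96, 2.04 and 0.00 in Con and 4.02, 5.71 and 6.81 in Comb, Myom1, a sarcomere protein, at 0.61, 0.00 and 0.62 and 2.43, 2.36 and 5.83, and Mustn1, a small nuclear protein of muscle and bone, at 0.43, 0.38 and 0.70 and 2.75, 2.33 and 4.72. Hspb1, a second small heat shock protein, was at 2.43, 2.54 and 2.01 in Con and 4.22, 4.01 and 6.0 in Comb, so that its 3 Comb levels also lay above all 3 Con levels. Cryab and Hspb1 are abundant in muscle as well as under stress, and the part of muscle RNA in their difference, for which values are given further on, was not tested.

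The genes that separated most clearly downward included a granzyme and several stress and hypoxia genes. Gzmc, a granzyme of activated cytotoxic lymphocytes, was at 6.87, 6.23 and 6.38 in Con and 4.47, 4.25 and 3.56 in Comb (−2.45, standard error 0.54, edgeR adjusted p = 0.0665, DESeq2 0.000277). Ddit4, which encodes the mTOR inhibitor REDD1 and is induced by hypoxia, glucocorticoids and p53, was at 9.15, 8.96 and 9.07 in Con and 7.54, 6.32 and 5.19 in Comb (−2.41, standard error 0.46, edgeR adjusted p = 0.0665, DESeq2 2.09e-05). Stc1, a secreted glycoprotein also induced by hypoxia, was at 4.06, 4.24 and 4.76 in Con and 3.16, 3.16 and 2.17 in Comb (−1.62, standard error 0.32). Dusp4, a phosphatase that acts on MAP kinases, was at 3.58, 3.52 and 3.69 in Con and 2.55, 1.62 and 0.00 in Comb, with 0 counts in Comb replicate 3. Nubpl, an assembly factor of respiratory complex I, differed little among the Comb tumors, at 2.76, 2.95 and 2.69 in Con and 1.74, 1.72 and 1.77 in Comb (−1.35, standard error 0.28). The remaining 5 of the 10 were Gzmg, the small nuclear RNA gene Rnu11 and the little-described 4930432K21Rik and Gm8994, with Bnip3, which is described with its pathway. The groups did not overlap for any of them, by the rule that chose them. Under edgeR none of the 10 had an adjusted p below 0.05 with the 3 Comb tumors.

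**Figure D2:**
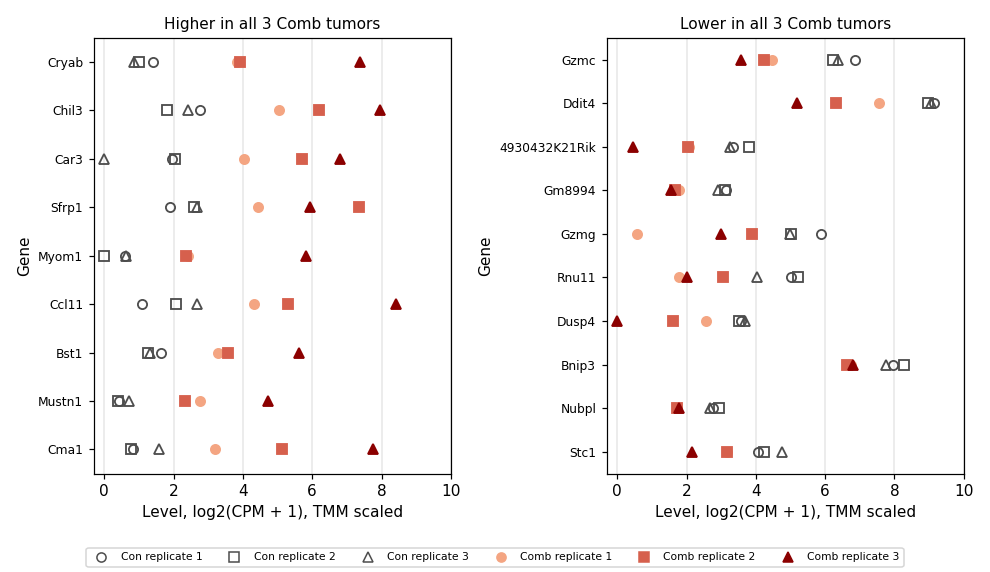
Levels in log2(CPM + 1) with TMM scaling (horizontal axis) of 9 genes higher (left) and 10 genes lower (right) in all 3 Comb tumors, chosen for a large gap between the closest Con and Comb tumors; open grey symbols are the 3 Con tumors and filled symbols the 3 Comb tumors, with the symbol shape giving the replicate number. In the left panel Comb replicate 3 is the highest tumor for 8 of the 9 genes, and in the right panel Bnip3, Nubpl and Gm8994 have their 3 Comb tumors close together.

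Genes of hypoxia and glycolysis were lower in the combined treatment, and the difference was of similar size in the 3 Comb tumors. Of 30 tested genes, 21 were lower in all 3 Comb tumors without overlap (13% of all genes) and 0 were higher. At an unadjusted p under 0.05, 21 were lower (7.3% of all genes) and 0 higher, and DESeq2 called 20 lower (2.9%). The median log2 fold change was −0.73, against −0.03 over all genes tested, and the median difference from the Con mean was −0.54, −0.78 and −0.81 in Comb replicates 1, 2 and 3. Without Comb replicate 3 the median was −0.67, with 23 genes lower at an unadjusted p under 0.05, and without TMM it was −0.96 against −0.29 over all genes. Bnip3, a mitochondrial protein that promotes mitophagy under low oxygen, was at 7.97, 8.28 and 7.75 in Con and 6.74, 6.62 and 6.81 in Comb (−1.3, standard error 0.19, edgeR adjusted p = 0.0665, DESeq2 6.5e-08). It was the 1 gene that edgeR called lower without Comb replicate 3 (log2 fold change −1.35, edgeR adjusted p = 0.0469), and its 3 Comb levels lay below those of all 9 other tumors. Ndrg1, a hypoxia-induced regulator of vesicle traffic, was at 8.41, 9.0 and 7.99 in Con and 7.16, 7.06 and 7.04 in Comb (−1.45, standard error 0.31). Its Comb levels were nearly alike, and the closest tumors of the 2 groups were 0.84 apart.

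Several enzymes that modify proteins and several of glycolysis, some named after their values were seen, were also lower in all 3 Comb tumors, by differing margins. P4ha2, a collagen prolyl hydroxylase, was at 6.45, 6.99 and 6.38 in Con and 5.63, 4.91 and 5.44 in Comb (−1.3, standard error 0.26). Pdk1, the kinase that keeps pyruvate out of mitochondria, was at 6.02, 5.72 and 5.7 in Con and 4.97, 4.7 and 4.68 in Comb (−1.06, standard error 0.18, edgeR adjusted p = 0.0665, DESeq2 3.05e-06). Egln3, a prolyl hydroxylase that marks HIF-1 for degradation and is itself a HIF target, was at 5.72, 5.1 and 5.02 in Con and 4.43, 2.83 and 4.08 in Comb, lowest in Comb replicate 2. Ero1l, an oxidase that forms disulfide bonds in the endoplasmic reticulum, was at 8.24, 9.1 and 7.71 in Con and 6.86, 7.06 and 5.48 in Comb. For these genes the Con tumors themselves had an SD of 0.38 for Egln3 and 0.70 for Ero1l. Pgk1, the glycolytic phosphoglycerate kinase, was at 8.29, 8.49 and 8.11 in Con and 7.63, 7.36 and 7.26 in Comb (−0.88, standard error 0.18), Slc2a1, the glucose transporter GLUT1, at 7.04, 7.54 and 7.08 and 6.49, 5.96 and 6.6, and Hk2, hexokinase 2, at 7.65, 8.13 and 7.68 and 7.33, 7.06 and 6.97. The closest tumors of the 2 groups were 0.47, 0.44 and 0.32 apart for these genes. Ldha, lactate dehydrogenase A, was separated by 0.09 only (−0.26, standard error 0.16, unadjusted p = 0.119), and Car9, a carbonic anhydrase of hypoxic cells, by 0.05. Of the 9 genes that overlapped, Hif1a, which encodes the oxygen-regulated subunit of HIF-1 itself, was at 6.88, 6.85 and 6.6 in Con and 6.69, 6.76 and 7.0 in Comb (0.04, standard error 0.17), and without TMM the sign of this small value turned and the Comb tumors lay below all Con tumors. Slc2a3, the glucose transporter GLUT3, was at 1.64, 1.49 and 1.48 in Con and 0.47, 1.51 and 4.36 in Comb, and Adm, a vasodilating peptide, at 2.69, 2.68 and 2.16 and 1.46, 2.19 and 4.28. Both genes were lowest in Comb replicate 1 and highest in Comb replicate 3, and their log2 fold changes of 1.92 and 0.72 were −0.79 and −0.85 without Comb replicate 3. Vegfa, a HIF target that encodes the angiogenic factor VEGF-A, was at 6.49, 6.39 and 6.22 in Con and 5.94, 5.61 and 4.81 in Comb (−0.86, standard error 0.28).

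**Figure D3:**
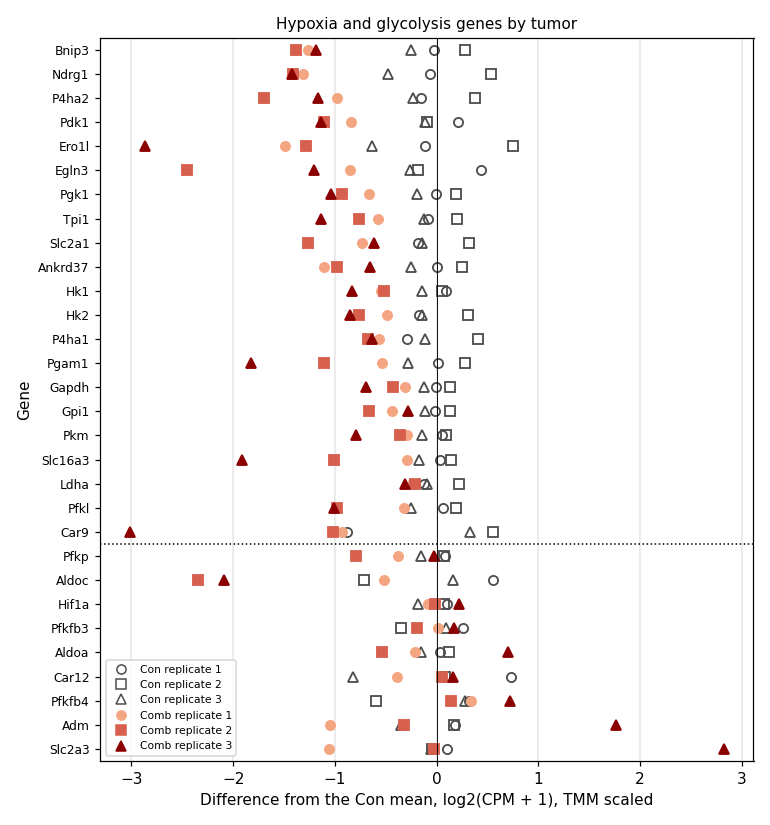
Difference of each tumor from the Con mean, in log2(CPM + 1) with TMM scaling (horizontal axis), for the 30 tested genes of the hypoxia and glycolysis list, ordered by the gap between the closest Con and Comb tumors; open symbols are Con, filled symbols Comb, and shapes give the replicate number. The 21 genes above the dotted line have all 3 Comb tumors below all 3 Con tumors, and Adm and Slc2a3 at the bottom are high in Comb replicate 3 alone.

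The promoters of the 4 members with the largest gap that have a RefSeq window are shown because the genes moved together and HIF-1 is known to bind ACGTG and GCGTG. Each window runs from 250 bases before to 50 bases after the annotated gene start in GRCm38.p6, read on the gene's own strand, 5′ to 3′. Capitals mark ACGTG or GCGTG on either strand (CACGT or CACGC on the strand shown). ACGTG lies within the E-box CACGTG, so a match does not name a factor. Bnip3 lies on the minus strand of chromosome 7 (chr7:138909457-138909756), P4ha2 on the plus strand of chromosome 11 (chr11:54100674-54100973), Pdk1 on the plus strand of chromosome 2 (chr2:71872974-71873273) and Egln3 on the minus strand of chromosome 12 (chr12:54203825-54204124).
Bnip3: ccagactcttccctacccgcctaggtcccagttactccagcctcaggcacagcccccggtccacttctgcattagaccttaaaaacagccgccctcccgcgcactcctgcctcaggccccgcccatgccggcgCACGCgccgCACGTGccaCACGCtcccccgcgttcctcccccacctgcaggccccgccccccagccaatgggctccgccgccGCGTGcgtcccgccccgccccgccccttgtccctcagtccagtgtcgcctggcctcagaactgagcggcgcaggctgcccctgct
P4ha2: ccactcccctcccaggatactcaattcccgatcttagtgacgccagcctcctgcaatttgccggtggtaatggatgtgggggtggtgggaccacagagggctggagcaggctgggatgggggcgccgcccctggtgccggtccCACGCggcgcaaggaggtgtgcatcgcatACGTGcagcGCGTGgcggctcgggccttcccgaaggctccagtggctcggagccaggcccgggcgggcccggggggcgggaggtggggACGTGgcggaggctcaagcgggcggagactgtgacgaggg
Pdk1: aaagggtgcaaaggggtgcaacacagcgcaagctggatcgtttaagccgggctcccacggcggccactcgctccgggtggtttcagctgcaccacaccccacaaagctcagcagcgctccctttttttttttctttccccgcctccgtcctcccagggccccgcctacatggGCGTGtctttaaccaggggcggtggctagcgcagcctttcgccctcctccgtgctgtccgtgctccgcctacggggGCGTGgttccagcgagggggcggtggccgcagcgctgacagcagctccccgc
Egln3: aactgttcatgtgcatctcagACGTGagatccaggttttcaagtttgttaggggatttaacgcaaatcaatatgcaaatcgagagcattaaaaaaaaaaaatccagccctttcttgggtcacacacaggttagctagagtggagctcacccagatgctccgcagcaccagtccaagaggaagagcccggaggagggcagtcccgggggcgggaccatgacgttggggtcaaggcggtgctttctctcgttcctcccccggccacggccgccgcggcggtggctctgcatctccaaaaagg
The Bnip3 window held 5 matches, 2 of which are the 2 strands of the single CACGTG, and the P4ha2, Pdk1 and Egln3 windows held 4, 2 and 1. A match was present in 15 of the 19 list genes that were lower in all 3 Comb tumors and had a window (78.9%), and in 21 of all 27 tested list genes with a window (77.8%). The share was 62.1% over the 10108 tested genes with a window and 43.8% over all 27025 genes. Ndrg1 and Ero1l had no window. The difference between these shares was not tested, and a match is a description of the letters and not of binding.

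Most genes of the macrophage list and of MHC class II presentation were higher in all 3 Comb tumors, and the Comb tumors differed from each other by more than the Con tumors did. In the list of macrophage and Fc receptor genes, 17 of 21 were higher without overlap (11.7% of all genes) and 0 lower. DESeq2 called 20 of the 21 higher (12% of all genes), and the median log2 fold change was 2.58, or 1.69 without Comb replicate 3. Lyz2, the lysozyme of myeloid cells, was at 4.71, 4.25 and 4.62 in Con and 5.96, 7.54 and 9.05 in Comb (3.54, standard error 0.68, edgeR adjusted p = 0.0665, DESeq2 4.38e-06). Adgre1, which encodes the macrophage marker F4/80, was at 5.29, 4.23 and 5.09 in Con and 5.62, 7.43 and 9.45 in Comb (3.37, standard error 0.80, or 1.89 without Comb replicate 3), and its lowest Comb level lay 0.34 above the highest Con level. Itgam, the CD11b integrin chain, was at 4.24, 3.99 and 4.48 in Con and 5.51, 5.7 and 6.75 in Comb, and Csf1r, the receptor for the macrophage growth factor CSF-1, at 7.06, 5.91 and 6.94 and 7.45, 9.4 and 9.93. Comb replicate 1 was nearest to Con for each of these 4 genes. The macrophage list summed to 1546, 1003 and 1836 CPM in the Con tumors and to 2020, 5864 and 17494 CPM in the Comb tumors.

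Genes of alternatively activated macrophages, the state promoted by interleukin 4 and interleukin 13, were among those with the largest differences. Of 17 tested, 9 were higher without overlap and 0 lower, against 11.7% and 13% of all genes, and the median log2 fold change was 3.84, or 1.80 without Comb replicate 3. Mrc1, the mannose receptor CD206, was at 4.72, 5.03 and 4.54 in Con and 5.74, 8.09 and 9.66 in Comb (3.84, standard error 0.88, edgeR adjusted p = 0.0665, DESeq2 5.96e-05). Cd163, the haptoglobin-hemoglobin scavenger receptor, was at 2.03, 3.08 and 2.84 in Con and 4.19, 5.75 and 7.77 in Comb, above all 9 other tumors, and Clec10a, a galactose-binding lectin, at 2.69, 3.55 and 3.01 and 4.94, 7.34 and 9.58. Retnla, a secreted product of such macrophages, had 92, 170 and 56 counts in Con and 236, 15352 and 440642 in Comb, so that this single gene made up a visible part of the 10981028 counts of Comb replicate 3. Chil3 belongs to this list as well. The list summed to 1296, 1670 and 1304 CPM in Con and 1350, 3431 and 44439 CPM in Comb, so that Comb replicate 1 lay within Con. Retnla carried most of the sum of Comb replicate 3 and a large part of that of Comb replicate 2. Of 14 tested genes of classically activated macrophages, 3 were higher and 1 lower without overlap, beside the same shares of all genes, with a median log2 fold change of 0.77.

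Several monocyte genes were also higher in all 3 Comb tumors. Ccr2, the receptor that draws monocytes into tissue, was at 5.14, 4.58 and 5.14 in Con and 6.6, 6.49 and 8.44 in Comb, and it passed edgeR without Comb replicate 3 (log2 fold change 1.6, adjusted p = 0.0282). Ly6c2, a surface protein of inflammatory monocytes, was at 5.94, 5.09 and 5.66 in Con and 7.57, 7.12 and 7.17 in Comb (1.72, standard error 0.32), highest in Comb replicate 1. Both genes were above all 9 other tumors. Cd209a, a lectin of monocyte-derived dendritic cells, had 0, 3 and 2 counts in Con, at or under the floor of 3 counts, and 16, 32 and 118 in Comb. In the monocyte and dendritic cell list, 11 of 21 were higher and 1 was lower without overlap, against 11.7% and 13% of all genes. Of 13 neutrophil genes, 3 were higher and 1 lower, and Csf3r, the G-CSF receptor, was at 0.23, 0.49 and 0.12 in Con and 1.35, 1.45 and 1.77 in Comb. The Con levels of Csf3r were near the floor of 3 counts.

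Complement genes, many of them made by macrophages, had 11 of 18 members higher without overlap (11.7% of all genes), 0 lower (13%) and a median log2 fold change of 2.67, or 1.45 without Comb replicate 3. C5ar1, the receptor for the attractant fragment C5a, was at 3.75, 3.73 and 3.59 in Con and 4.85, 5.39 and 5.59 in Comb (1.7, standard error 0.22, unadjusted p = 9.49e-06, edgeR adjusted p = 0.0665). Without Comb replicate 3 it was 1.53 (adjusted p = 0.0282), and its 3 Comb levels lay above those of all 9 other tumors. Cfp, the alternative pathway stabilizer properdin, was at 4.89, 4.48 and 4.91 in Con and 5.64, 7.39 and 10.04 in Comb, and Itgb2, the shared chain of the complement receptors CR3 and CR4, at 4.71, 4.06 and 4.67 and 5.55, 6.74 and 8.03. For MHC class II presentation, 7 of 12 genes were higher without overlap (11.7% of all genes) and 0 lower (13%), and DESeq2 called 11 higher (12% of all genes). Cd74, the invariant chain, was at 6.77, 5.66 and 7.0 in Con and 7.78, 10.41 and 13.29 in Comb (5.35, standard error 1.14, or 3.05 without Comb replicate 3, edgeR adjusted p = 0.0665, DESeq2 1.29e-06). H2-Ab1, a class II beta chain, was at 6.33, 5.17 and 6.87 in Con and 7.35, 9.78 and 12.16 in Comb. The Con tumors differed among themselves by more than 1 log2 unit for both genes, and Con replicate 2 was the lowest. The MHC class II list summed to 1724, 968 and 2101 CPM in Con and 2074, 7172 and 33778 CPM in Comb, and Comb replicate 1 again lay within Con.

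**Figure D4:**
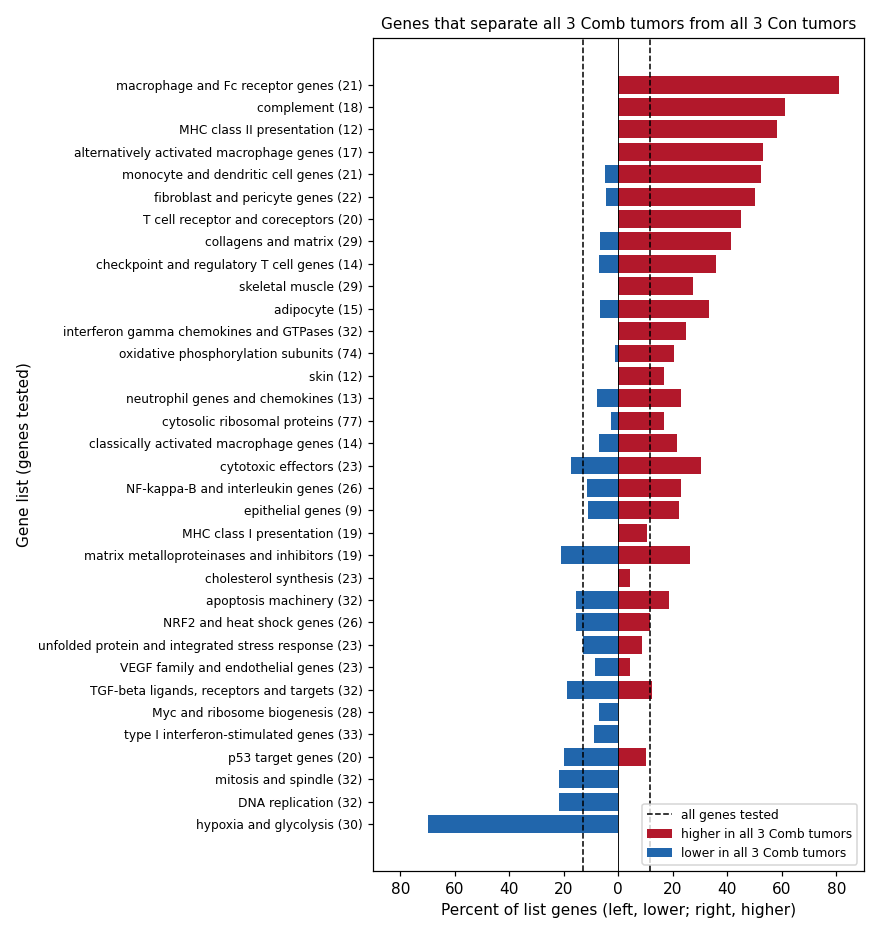
Percent of the tested genes of each list (number in parentheses) in which all 3 Comb tumors lie above (right, red) or below (left, blue) all 3 Con tumors, for lists of 9 genes or more; dashed lines give the percent over all 13464 genes. The longest bars are those of macrophage and Fc receptor genes to the right, with 17 of 21, and of hypoxia and glycolysis genes to the left, with 21 of 30.

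Of 20 tested genes of the T cell receptor and its coreceptors, 9 were higher without overlap (11.7% of all genes), 0 lower and 11 overlapped, and 9, 18 and 19 genes were above all Con tumors in Comb replicates 1, 2 and 3, against 29.6%, 35.7% and 41.4% of all genes. The median log2 fold change was 2.12, or 1.33 without Comb replicate 3. The list summed to 207, 125 and 231 CPM in Con and 205, 476 and 954 CPM in Comb, with Comb replicate 1 inside the range of Con. Cd2, an adhesion molecule of T and NK cells, was at 1.96, 1.68 and 2.33 in Con and 3.15, 4.31 and 5.67 in Comb (3.07, standard error 0.70, edgeR adjusted p = 0.0665, DESeq2 0.000318), and Cd3d, a chain of the T cell receptor complex, at 3.17, 3.18 and 3.2 and 3.45, 5.41 and 7.17. Cd4, the coreceptor of helper T cells, was at 0.43, 0.85 and 1.61 in Con and 1.74, 3.2 and 4.72 in Comb. The groups overlapped for Cd3e and Cd8a. Cd3e was at 1.68, 1.0 and 1.88 in Con and 1.65, 2.08 and 4.01 in Comb, and Cd8a, the coreceptor of cytotoxic T cells, at 2.73, 2.38 and 3.19 and 2.4, 4.46 and 4.41. In both, Comb replicate 1 lay within the range of Con.

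Of 23 tested cytotoxic effector genes, 7 were higher and 4 lower without overlap, against 11.7% and 13% of all genes, and the 4 lower genes were all granzymes. Ifng, the gene of interferon gamma, had 8, 2 and 14 counts in Con and 14, 92 and 92 in Comb, and the groups were separated by 0.07 with TMM scaling and overlapped without it. Klrk1, the activating receptor NKG2D, was at 3.12, 2.52 and 3.1 in Con and 3.8, 5.03 and 6.17 in Comb, Klrb1c, the NK cell receptor NK1.1, at 1.04, 0.26 and 1.05 and 1.46, 3.08 and 5.45, and Nkg7, a protein of cytotoxic granules, at 3.45, 3.25 and 3.8 and 3.94, 5.65 and 7.53. Srgn, the proteoglycan that packs granule proteins and is also made by myeloid cells, was at 6.08, 5.76 and 6.16 in Con and 6.86, 8.44 and 10.12 in Comb (3.05, standard error 0.66, or 1.86 without Comb replicate 3, edgeR adjusted p = 0.0665). The lower genes were Gzmc, Gzmd, Gzme and Gzmg. Gzmd was at 5.64, 4.85 and 4.62 in Con and 1.05, 3.83 and 2.45 in Comb, Gzmg at 5.89, 5.02 and 5.0 and 0.57, 3.89 and 3.0, and Gzme at 4.58, 3.31 and 3.78 and 1.46, 3.0 and 0.00, with Comb replicate 2 nearest to Con in these 3 genes. These granzymes are near-identical neighbouring copies, so reads may have been divided among them in ways the counts do not show. Gzmb, the main granzyme of cytotoxic T cells, was at 3.43, 4.09 and 4.34 in Con and 3.64, 4.43 and 4.22 in Comb, a difference of 0.14 with a standard error of 0.59. Its groups overlapped, and the sign of that value turned without TMM. Among checkpoint and regulatory T cell genes, 5 of 14 were higher and 1 lower, beside the same shares of all genes. Ctla4, an inhibitory receptor of T cells, was at 0.61, 0.49 and 0.62 in Con and 1.18, 2.36 and 2.76 in Comb, and Pdcd1lg2, which encodes the PD-1 ligand PD-L2, at 0.00, 0.68 and 1.05 and 1.97, 2.55 and 6.64.

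Interferon-responsive genes did not share 1 pattern across the Comb tumors. Of 32 chemokine, GTPase and regulator genes of the interferon gamma response, 8 were higher without overlap (11.7% of all genes) and 0 lower (13%), and 17 were higher at an unadjusted p under 0.05 (18% of all genes). The number above all Con tumors was 15 in Comb replicate 1, 30 in Comb replicate 2 and 17 in Comb replicate 3, against 29.6%, 35.7% and 41.4% of all genes, so that the count stood furthest from its share in Comb replicate 2. Cxcl9, the chemokine that recruits CXCR3-bearing T cells, was at 7.26, 5.97 and 6.98 in Con and 7.61, 9.45 and 9.18 in Comb (2.12, standard error 0.44, edgeR adjusted p = 0.0665, DESeq2 0.000163). Ciita, the master regulator of MHC class II genes, was at 0.53, 0.14 and 0.62 in Con and 0.91, 1.96 and 3.41 in Comb, Serpina3g, a protease inhibitor of activated T cells and macrophages, at 2.84, 2.49 and 3.04 and 3.5, 5.09 and 7.44, and Gbp4, a guanylate-binding GTPase, at 4.5, 4.38 and 4.49 and 4.72, 6.55 and 5.07. Of 33 tested type I interferon-stimulated genes, 0 were higher and 3 lower without overlap, below the shares over all genes, and 31 were below all Con tumors in Comb replicate 3, against 5 in Comb replicate 1 and 9 in Comb replicate 2. Over all genes these shares were 47.9%, 28.5% and 37.9%. Ifih1, the viral RNA sensor MDA5, was at 6.67, 6.26 and 6.52 in Con and 6.02, 5.84 and 4.99 in Comb, and Stat2, a transcription factor of the type I response, at 6.15, 6.05 and 6.04 and 5.93, 5.55 and 4.9. In MHC class I presentation, 2 of 19 genes were higher without overlap, no more than the 11.7% of all genes, and 0 lower (13%). B2m, the light chain of class I molecules, was at 12.37, 12.39 and 12.56 in Con and 12.79, 13.23 and 14.33 in Comb (1.16, standard error 0.36, or 0.59 without Comb replicate 3, edgeR adjusted p = 0.0837). Ido2, an enzyme of tryptophan breakdown, overlapped, at 3.6, 3.06 and 3.87 in Con and 3.67, 3.45 and 1.36 in Comb.

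Matrix and fibroblast genes were higher in a part of their lists. Of 29 collagen and matrix genes, 12 were higher and 2 lower without overlap, against 11.7% and 13% of all genes, with a median log2 fold change of 1.26, or 0.35 without Comb replicate 3. Of 22 fibroblast and pericyte genes, 11 were higher and 1 lower. Col14a1, a collagen on the surface of fibrils, was at 3.48, 3.55 and 3.39 in Con and 4.94, 7.52 and 7.85 in Comb (3.86, standard error 0.81, edgeR adjusted p = 0.0665, DESeq2 1.71e-05), and Lum, the fibril-binding lumican, at 2.92, 3.06 and 3.74 and 4.33, 6.57 and 9.34. Cxcl12, a chemokine of stromal cells, was at 2.06, 2.97 and 2.43 in Con and 4.06, 5.58 and 5.54 in Comb (2.91, standard error 0.57), and Pi16, a marker of fibroblasts around vessels, at 1.32, 2.54 and 1.73 and 3.59, 5.0 and 5.1. For Cxcl12 and Pi16 the levels of Comb replicates 2 and 3 were alike. Acta2, smooth muscle actin, was at 3.75, 4.14 and 4.08 in Con and 4.97, 6.59 and 5.79 in Comb, highest in Comb replicate 2. Among proteases of the matrix, Mmp3, stromelysin 1, was at 2.23, 3.79 and 3.91 in Con and 4.23, 7.84 and 7.95 in Comb, while Mmp10, stromelysin 2, had 7, 14 and 14 counts in Con and 0 in each Comb tumor. In the TGF-β list, 4 of 32 genes were higher and 6 lower without overlap, near the shares over all genes, and the median log2 fold change was 0.01. Tgfb2, a TGF-β ligand, was at 3.54, 3.46 and 3.63 in Con and 2.55, 3.25 and 2.86 in Comb (−0.71, standard error 0.36, edgeR adjusted p = 0.246), and Smad7, the feedback inhibitor of the pathway, at 3.99, 3.8 and 3.75 and 3.24, 3.42 and 1.91. Ctgf, a matricellular target, was at 1.59, 4.01 and 4.21 in Con and 4.73, 4.79 and 5.08 in Comb, where Con replicate 1 was far below the other 2 Con tumors. Of 23 genes of the VEGF family and of endothelium, 1 was higher and 2 lower, below the shares over all genes.

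Lists of cell death and stress responses held separated genes in both directions, as did all genes (11.7% higher and 13% lower). Of 32 genes of the apoptosis machinery, 6 were higher and 5 lower without overlap. Fas, the death receptor, was at 2.17, 2.33 and 2.16 in Con and 2.98, 3.23 and 4.65 in Comb (1.83, standard error 0.44, or 1.06 without Comb replicate 3, edgeR adjusted p = 0.0665, DESeq2 0.00203) and lay above all 9 other tumors in each Comb tumor. Casp8, the initiator caspase downstream of it, was at 5.68, 5.28 and 5.42 in Con and 6.3, 6.56 and 6.69 in Comb (1.08, standard error 0.24), and Bax, a pore-forming effector of mitochondria, at 3.62, 3.49 and 3.2 and 4.07, 4.01 and 4.7. On the other side, Bbc3, the p53-induced activator PUMA, was at 4.3, 4.64 and 4.37 in Con and 4.05, 3.81 and 2.81 in Comb. Its Comb replicates 1 and 2 lay close together just below Con, and replicate 3 lay further away. Of 26 genes of the NRF2 and heat shock responses, 3 were higher and 4 lower, shares near those of all genes, among them Slc7a11, the cystine importer and NRF2 target, at 5.39, 5.49 and 5.28 in Con and 4.79, 4.41 and 2.54 in Comb. Of 26 NF-κB and interleukin genes, 6 were higher and 3 lower, with Il6ra, the interleukin 6 receptor, at 3.87, 3.42 and 3.61 in Con and 4.28, 4.79 and 4.31 in Comb and Ier3, an immediate early NF-κB target, at 8.75, 8.79 and 8.52 and 8.0, 7.09 and 7.73.

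Proliferation genes were lower mainly in Comb replicate 3. Of 32 genes of mitosis and the spindle, 7 were lower without overlap (13% of all genes) and 0 higher (11.7%), and 32 were below all Con tumors in Comb replicate 3, against 11 in Comb replicate 1 and 13 in Comb replicate 2, where the shares over all genes were 47.9%, 28.5% and 37.9%. Of 32 DNA replication genes, 7 were lower and 0 higher, with 31 below all Con tumors in Comb replicate 3, 18 in Comb replicate 2 and 9 in Comb replicate 1. Their summed level was 3844 to 3961 CPM in Con and 3967, 3034 and 516 CPM in Comb. At an unadjusted p under 0.05, 0 genes of either list were called by edgeR. Mki67, which encodes the proliferation marker Ki-67, was at 8.9, 8.6 and 8.38 in Con and 8.22, 8.14 and 4.61 in Comb (−0.99, standard error 0.63, edgeR adjusted p = 0.335), and without Comb replicate 3 its log2 fold change was −0.46. Ccnb2, a mitotic cyclin, was at 6.01, 6.28 and 6.12 in Con and 5.76, 5.58 and 3.16 in Comb, and Ccne1, the cyclin of S phase entry, at 5.01, 5.46 and 5.04 and 4.68, 4.79 and 2.05. Bub1, a spindle checkpoint kinase, had 688, 701 and 705 counts in Con and 594, 294 and 0 in Comb, and Sfmbt2, a Polycomb group gene, 1049, 1017 and 1061 and 826, 615 and 0. The summed level of the mitosis list was 5954, 5989 and 5901 CPM in Con and 5732, 4251 and 312 CPM in Comb. Comb replicate 3 was also the tumor in which Rhox5 was low and the macrophage list high, and the part of tumor cell content in these levels was not tested. Genes of cholesterol synthesis were below all Con tumors in 20 of 23 cases in Comb replicate 3, 14 in Comb replicate 2 and 0 in Comb replicate 1, beside 47.9%, 37.9% and 28.5% of all genes. Genes of Myc and ribosome biogenesis were below all Con tumors in 27 of 28 cases in Comb replicate 3 and above them in 16 of 28 in Comb replicate 1, beside 47.9% and 29.6% of all genes.

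For mitochondrial and ribosomal protein genes the counts depended on the scaling. Of 74 subunits of oxidative phosphorylation, 15 were higher and 1 lower without overlap (11.7% and 13% of all genes), or 9 higher and 8 lower without TMM, and the median log2 fold change was 0.35, or 0.04 without TMM and 0.08 without Comb replicate 3. Atp5e, the epsilon subunit of ATP synthase, was at 7.69, 7.7 and 7.58 in Con and 8.1, 8.35 and 9.42 in Comb. Of 77 cytosolic ribosomal proteins, 13 were higher and 2 lower, 9 higher and 7 lower without TMM, 22 and 2 with upper-quartile scaling, and 21 and 2 with DESeq2 size factors. The median was 0.48, or 0.19 without TMM and 0.22 without Comb replicate 3. In Comb replicates 2 and 3, 66 and 65 of them were above all Con tumors (35.7% and 41.4% of all genes), against 13 in Comb replicate 1 (29.6%). Rpl14 was at 9.95, 9.94 and 9.73 in Con and 10.22, 10.62 and 10.78 in Comb. Ribosomal protein genes have many processed pseudogenes, so reads of single members may be shared with such copies.

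Markers of tissues around the tumor differed from 1 Comb tumor to the next, each list in its own pattern. The skeletal muscle list summed to 133 to 144 CPM in Con and to 1372, 81.3 and 8942 CPM in Comb, and 27, 8 and 26 of its 29 tested genes were above all Con tumors in Comb replicates 1, 2 and 3. Myl1, a fast myosin light chain, had 0 counts in each Con tumor and 852, 13 and 13464 in Comb, and Trdn, triadin of the calcium release unit, had 0, 0 and 2 and 253, 5 and 1453. Comb replicate 2 was therefore below Con in this sum, whereas the other Comb tumors were above it. The levels of Cryab, Hspb1, Myom1 and Mustn1 given above differed by less than 0.5 between Comb replicates 1 and 2. Myom1 and Mustn1 are themselves genes of muscle, and the part of muscle RNA in these levels was not tested. The adipocyte list summed to 535 to 596 CPM in Con and 638, 1032 and 2782 CPM in Comb, and the skin list to 38.1 to 70.4 CPM in Con and 28.6, 23.1 and 685 CPM in Comb. Krt5, a keratin of basal skin cells, had 0, 6 and 0 counts in Con and 1, 12 and 834 in Comb, an overlap. Erythroid genes summed to 312 to 527 CPM in Con and 301, 498 and 2741 CPM in Comb, and genes of B and plasma cells to 4.56 to 7.88 CPM in Con and 8.82, 82.1 and 29.1 CPM in Comb. The erythroid sums were 207 to 1396 CPM with SFIH alone and 91.8 to 1998 CPM with anti-PD-1 alone. Without overlap, 8 of 29 muscle, 5 of 15 adipocyte and 2 of 12 skin genes were higher, beside 11.7% of all genes. Of 7 erythroid and 4 B and plasma cell genes, 0 were higher. In the other direction, 1 adipocyte gene was lower (13% of all genes).

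Eosinophil and mast cell genes, grouped into lists after the values had been seen and so given with no test, had higher summed levels in the Comb tumors, highest in Comb replicate 3, and abundant members carry such sums. Of the 9 eosinophil genes tested, 7 were higher without overlap and 2 overlapped, and of the 7 mast cell genes tested, 5 were higher, 1 overlapped and 1, Gata2, was lower, where 11.7% of all genes were higher and 13% lower. The eosinophil list of 12 genes summed to 3.38, 6.03 and 8.68 CPM in Con and 28.7, 167 and 2264 CPM in Comb, and to 4.3 to 36.6 CPM in the tumors treated with SFIH or anti-PD-1 (PD) alone. The list holds the attractants Ccl11 and Ccl24, which other cells also make. Ccr3, the eotaxin receptor, had 1, 6 and 1 counts in Con and 33, 182 and 1834 in Comb, and Ccl24, a second eotaxin, had 9, 1 and 1 and 11, 82 and 2688. Epx, the eosinophil peroxidase, had 0 counts in all 6 tumors, and Ear6, an eosinophil-associated ribonuclease, had 0, 1 and 0 in Con and 0, 0 and 2 in Comb, so this last gene was at or under the floor of 3 counts and Epx, a defining granule gene, was not detected, which at these depths allows up to 0.273 to 0.312 CPM (3 counts). The mast cell list of 10 genes summed to 25.1, 21.2 and 32.1 CPM in Con and 56.9, 201 and 1052 CPM in Comb. All 3 Comb tumors were above all 9 other tumors in both sums, except Comb replicate 1 in the eosinophil sum, which lay below PD replicate 2.

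**Figure D5:**
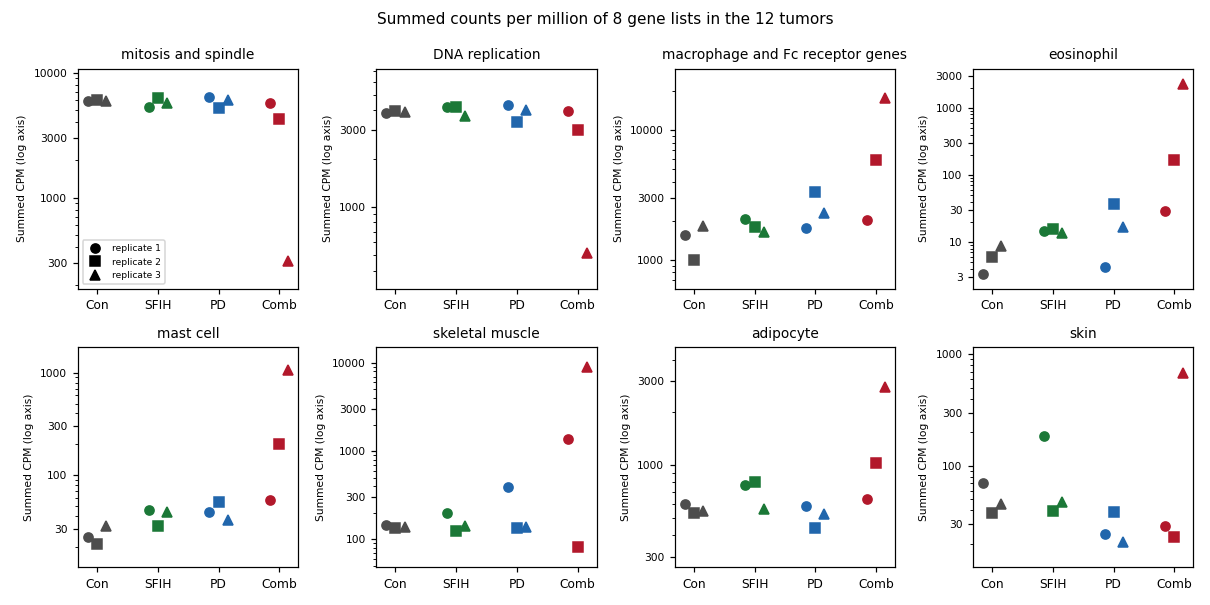
Summed CPM (log axis, scaled to library totals without TMM) of 8 gene lists in each of the 12 tumors, grouped as Con, SFIH, PD and Comb, with the symbol shape giving the replicate number. Comb replicate 3 lies far from all other tumors in each panel, the mast cell sums of all 3 Comb tumors lie above those of the other 9, and the muscle sum is high in Comb replicates 1 and 3 and lowest of all tumors in Comb replicate 2.

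Set against the whole series, 151 genes had all 3 Comb tumors above all 9 other tumors (1.12% of the genes tested) and 211 had them below (1.57%). Among those with a mean of at least 50 counts in the higher group, large gaps upward beside those of Myom1 and Ccl11 were those of Tuba8, an alpha-tubulin, at 1.46, 1.91 and 5.3 in Comb, 0.50 above the highest other tumor, and Unc45b, a myosin chaperone, at 1.9, 2.04 and 4.34, also 0.50 above. Downward, Suv420h2, a histone H4 methyltransferase, was at 2.78, 2.81 and 3.01 in Con and 1.93, 1.87 and 1.42 in Comb (−1.4, standard error 0.30, edgeR adjusted p = 0.0665, DESeq2 0.000228), 0.60 below the lowest other tumor. Afap1, an actin filament-binding adaptor of Src, was at 4.42, 4.71 and 4.78 in Con and 3.86, 3.8 and 3.68 in Comb. In the hypoxia and glycolysis list, 8 of 30 genes lay below all 9 other tumors, and the summed level of the list was 7306, 8636 and 6975 CPM in Con, 5198, 3857 and 3540 CPM in Comb, 7035 to 7304 CPM in the tumors of SFIH alone and 5256 to 5871 CPM in those of PD.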

How the data were processed

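The authors sequenced QuantSeq 3′ mRNA-Seq libraries of tumor RNA as single-end reads and deposited raw read counts per gene symbol, 1 column per tumor. The aligner, counter, genome build and annotation are not given in the sources used here. Because a 3′ library gives about 1 read per transcript, levels of different genes were not corrected for length and are not compared with each other. The members and gene lists were chosen with earlier results of these data known.

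Of 23282 table rows, 19137 had a count and 13464 passed edgeR's filterByExpr over the 12 tumors. Rows that repeat a symbol (46) and symbols turned into dates (14) were kept as separate genes. Counts of all 12 tumors were fitted with edgeR 4.0.16 in R 4.3.3 (TMM scaling, quasi-likelihood test, 1 coefficient per group), Comb minus Con was tested, and p-values were adjusted by Benjamini-Hochberg over all tested genes. Differences in parentheses after 2 sets of levels are log2 fold changes of this fit, and their standard errors were taken as the fold change divided by the square root of F. DESeq2 1.42.0, limma 3.58.1 (voom with sample quality weights), other scalings (none, upper quartile, DESeq2 size factors), other filters, the Con and Comb tumors alone, a replicate block and leaving out each replicate were the alternatives. Summaries and plots were made in Python 3.11.15 with pandas 2.3.3, numpy 2.4.6 and matplotlib 3.10.9.

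Named genes were the 10 per direction with the largest gap among those with a mean of at least 50 counts in the higher group, up to 4 members per list by gap, genes of the proteins the study stained or plotted, the 8 per direction that set Comb replicate 3 apart most and the 5 per direction furthest beyond the 9 other tumors. Adm, Car9, Ccr3, Cd4, Cdh1, Csf1r, Egln3, Ero1l, Gzme, Hif1a, Hk2, Klrb1c, Klrk1, Ldha, Nkg7, Pgk1, Rhox5, Slc2a1, Slc2a3 and Vil1 were named in addition, after their values were seen. Some genes that the rule names are not reported here. Nothing in the labels says more of the replicates than that they are separate tumors, and p-values measure only the spread between them. The floor of 3 counts covers counting error only.

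The scripts were tested on simulated data for Comb against Con with 13464 genes, 200 of them changed 4-fold. With a common dispersion of 0.158, as in the real fit, edgeR found 75% with 5 false calls, DESeq2 80% with 28 and limma 70.5% with 4. With the dispersion found without Comb replicate 3 (0.0677), these were 99.5% with 9, 99.5% with 36 and 99% with 11. All simulated tumors were drawn with the same dispersion, so none stood apart as Comb replicate 3 does. The shares found and the false calls therefore do not carry over to the real comparison.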

Additional observations from a re-analysis of the deposited data

How the results depend on the processing

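The count of genes with an adjusted p under 0.05 was 0 with edgeR under other scalings, other filters, a robust fit and the Con and Comb tumors alone. It was 1998 with DESeq2 and 2719 with limma and sample quality weights, and it ranged from 0 to 3943 when 1 replicate was left out, with 3943 without Comb replicate 1 and 5 without Comb replicate 3. A replicate block left it at 0. The same-numbered Con and Comb tumors had correlations of deviations of −0.0368, 0.162 and 0.156, so the numbers were not taken to pair the tumors. Without TMM, 1025 genes were higher and 2986 lower in all 3 Comb tumors, and 84 and 368 lay beyond all 9 other tumors. A gap of at least 1 left 54 higher and 5 lower. Leaving out 1 replicate gave 1982 to 3756 higher and 2274 to 3863 lower genes, and 179 to 2294 and 222 to 1968 beyond the 9 others. The highest values were those without Comb replicate 1, the tumor nearest to Con, and fewer tumors have to separate in each case. Without Comb replicate 2, 420 and 492 genes lay beyond the 9 others, and without Comb replicate 3, 237 and 305.

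Of 1723 alternative values for 109 named genes, 1457 kept their direction and their side of the threshold and 254 passed the threshold in the same direction, mostly with DESeq2 (80 genes), limma (81) and without Comb replicate 1 (88). The sign turned in 12 cases, and their cause was not tested. These were Hif1a at −0.235 without TMM, −0.007 without the low-count filter, and −0.059 to 0.106 when 1 replicate was left out (−0.047 without Con replicate 3); Adm at −0.39 with limma and −0.852 to 1.198 when 1 was left out; Slc2a3 at −0.23 with limma and −0.786 to 2.479 when 1 was left out; Gzmb at −0.161 without TMM and −0.095 (without Con replicate 1) to 0.36 when 1 was left out (−0.061 without Comb replicate 2); and Ido2 at −0.886 to 0.019. The values of Hif1a, Adm and Slc2a3 below 0 and of Ido2 above 0 were those without Comb replicate 3, except where another is named.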
